A study of Mus musculus with 12 samples.

Results

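The constitutive proteasome subunits are the 31 genes that encode the 20S core and the 19S regulatory particle without the immunoproteasome subunits. The list was drawn up with earlier results of these data known, its rule is by gene symbol and uses no expression value, and all 31 were found among the 30389 genes of the deposited table. There were 14 genes of the 20S core (7 of the alpha ring, 4 structural and 3 catalytic beta subunits) and 17 of the 19S particle (6 ATPases, 3 other base subunits and 8 lid subunits). Messenger RNA was sequenced in 12 libraries of muscle from 6 C57BL/6 mice, whose ages are not given in the sources used here. The anomaly group was 3 animals of genotype VEC-Cre;SB Transposase;onc3, in which the VE-cadherin promoter, active in endothelium, drove Cre recombinase, and each library was made from a vascular anomaly of muscle. The normal group was 3 animals of genotype SB Transposase;onc3, without Cre, which gave normal muscle. Both groups thus carried SB Transposase, for Sleeping Beauty, and onc3, the mobile element it moves. Each animal gave 2 libraries, called pieces here (in anomaly animal 2, separate lesions), so the replicate was the animal (n = 3 per group).

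The proteasome is the protease that degrades proteins tagged with ubiquitin in the cytosol and nucleus. Its 20S core is a barrel of stacked rings, in which the alpha rings form the gates and the beta rings hold the active sites inside. The 19S particle sits on the end of the barrel, binds and deubiquitinates the substrate, and unfolds it with a ring of ATPases. In skeletal muscle, the ubiquitin-proteasome system is known for breaking down contractile proteins during atrophy. In cells exposed to interferon, the 3 catalytic beta subunits are replaced by immunoproteasome subunits. The transcription factor NRF1, encoded by Nfe2l1, is known to raise transcription of proteasome genes together when proteasome activity is short, through antioxidant response elements in their promoters.

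Promoter sequence from RefSeq (build GRCm38.p6), the 250 bases before the start of transcription, was given for 25 of the 31 members. It was searched on both strands for 3 motifs. The core of the antioxidant response element, TGACNNNGC, was found in 4 of 25 members (16%; Psmb5, Psmb6, Psmc6 and Psmd12) and in 11.5% of all 27025 genes with a promoter. The NF-Y box, CCAAT, was found in 10 of 25 members (40%) and in 37.5% of all genes. The motif of nuclear respiratory factor 1, a different factor from Nfe2l1, is GCGCA, any base, then GCGC. It was found in 6 of 25 members (24%; Psma2, Psma3, Psma4, Psmc4, Psmc5 and Psmd14) and in 4.23% of all genes. In members, 0 matches of 1 motif overlapped a match of another. These are matches of letters in a window, given as a description.
The following 120 bases, written 5' to 3' on the strand of the gene, end before the RefSeq start or the annotated gene start, whichever lies further upstream, and capitals mark a motif match. Psmb5 (chr14:54618023-54618142, minus strand) and Psmb6 (chr11:70525237-70525356, plus strand) are shown as catalytic members with an antioxidant response element core.
Psmb5: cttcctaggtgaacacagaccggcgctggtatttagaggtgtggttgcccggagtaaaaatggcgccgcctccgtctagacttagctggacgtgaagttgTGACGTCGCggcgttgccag
Psmb6: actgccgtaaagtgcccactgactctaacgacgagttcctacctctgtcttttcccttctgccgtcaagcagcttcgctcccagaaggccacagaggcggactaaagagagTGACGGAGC
Psma3 (chr12:70974501-70974620, plus strand), Psmc5 (chr11:106256034-106256153, plus strand) and Psmd14 (chr2:61711574-61711693, plus strand) are shown for the nuclear respiratory factor 1 motif, which lies on the opposite strand in Psmc5 and Psmd14.
Psma3: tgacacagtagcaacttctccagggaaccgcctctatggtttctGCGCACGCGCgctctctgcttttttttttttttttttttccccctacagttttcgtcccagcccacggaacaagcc
Psmc5: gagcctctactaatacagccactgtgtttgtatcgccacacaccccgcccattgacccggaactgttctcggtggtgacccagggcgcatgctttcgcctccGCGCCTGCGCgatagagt
Psmd14: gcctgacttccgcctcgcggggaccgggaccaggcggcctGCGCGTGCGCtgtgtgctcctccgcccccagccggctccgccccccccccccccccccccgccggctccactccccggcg
Psmd6 (chr14:14120985-14121104, minus strand) is shown as a member whose transcript was called lower in anomaly tissue under every scaling tried and whose window held none of the 3 motifs.
Psmd6: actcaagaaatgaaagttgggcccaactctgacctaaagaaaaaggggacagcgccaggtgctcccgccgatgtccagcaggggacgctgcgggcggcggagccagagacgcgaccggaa

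The depth behind each value was recovered from the table. It was 254404 reads in piece 1 of anomaly animal 1, between 9650550 and 18476461 in the other anomaly libraries, and between 17380211 and 32155879 in normal libraries. In that shallow piece a single read weighed 1.85 CPM (read counts scaled to a common library size), against at most 0.0719 CPM in any other library, and its member values rest on 4 to 65 recovered reads each. A share of 14.6% to 22.9% of the reads fell on the top 50 genes in anomaly libraries, against 47.7% to 50.8% in normal libraries. The table was scaled for this composition difference by the authors, and how it is scaled sets the direction of many members below. With the deposited scaling all 14687 genes tested had a median log2 fold change, anomaly over normal, of 0.09, with library totals alone it was 0.97, and it was -0.33 when trimmed mean factors were computed anew from the recovered reads. Levels below are CPM with the deposited scaling, as the mean of the 2 pieces of an animal. Fold changes are differences of log2(CPM + 1), taken in each library before the pieces were averaged, so they do not follow exactly from the CPM means. They are given with the standard error (SE) of limma and p-values adjusted by Benjamini-Hochberg over all genes tested.

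The comparison of anomaly with normal muscle asked how the transcripts of tissue with endothelial transposition differed from those of control muscle. With the deposited scaling, limma called 0 of 31 higher, against 32.4% of all genes tested, and 21 of 31 lower, against 31% of all genes. The other 10 did not pass the test at an adjusted p under 0.05, and the log2 fold change was below 0 in all 31. The median of the members was -0.83 with the deposited scaling and 0.32 with library totals alone, so the direction of the group as such depended on the scaling. Relative to the median of all genes under the same scaling, the members' median was -0.92 with the deposited scaling, -0.66 with library totals alone and -0.93 with trimmed mean scaling. With trimmed mean scaling, 0 members were higher (25.1% of all genes) and 30 lower (40.8%), and without the 50 most abundant genes in those factors 31 were lower (41%). With piece 2 of each animal alone 14 were lower (28.6% of all genes), and with the piece number as a block 21 were (32.3%). Piece numbers follow sample order and the labels name no batch shared across animals, so this block is not a known batch. A share of 27.9% of all genes tested lay below the members' median. In bulk tissue, fewer cells of a type and less RNA per cell cannot be told apart in any of these values.

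All 3 anomaly animals lay below all 3 normal animals in 28 of 31 members with the deposited scaling, against 35.4% of all genes. Psma7, Psmb3 and Psmc4 were the 3 that overlapped. All 6 anomaly libraries lay below all 6 normal libraries in 20 of 31 members, against 27.6% of all genes, and in 0 members did anomaly libraries or animals all lie above (28.8% and 37.6% of all genes). By subcomplex, 14 of 17 members of the 19S particle were called lower, at a median log2 fold change of -1.11, and 7 of 14 of the 20S core, at a median of -0.50. Beside these counts, and every list count with the deposited scaling below, stand 31% of all genes called lower and 32.4% called higher. With library totals alone those medians were 0.04 and 0.63, and with trimmed mean scaling they were -1.55 and -0.93. The difference between the subcomplexes is a description and was not tested. The members' summed level was 1597 to 2797 CPM in anomaly libraries, against 3886 to 4630 CPM in normal libraries. As a plain share of the reads they held 0.314% to 0.420% in anomaly libraries, against 0.286% to 0.370% in normal libraries, and these ranges overlapped. Such a share amounts to scaling by library totals alone, so it carries the composition difference given above.

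**Figure D1:**
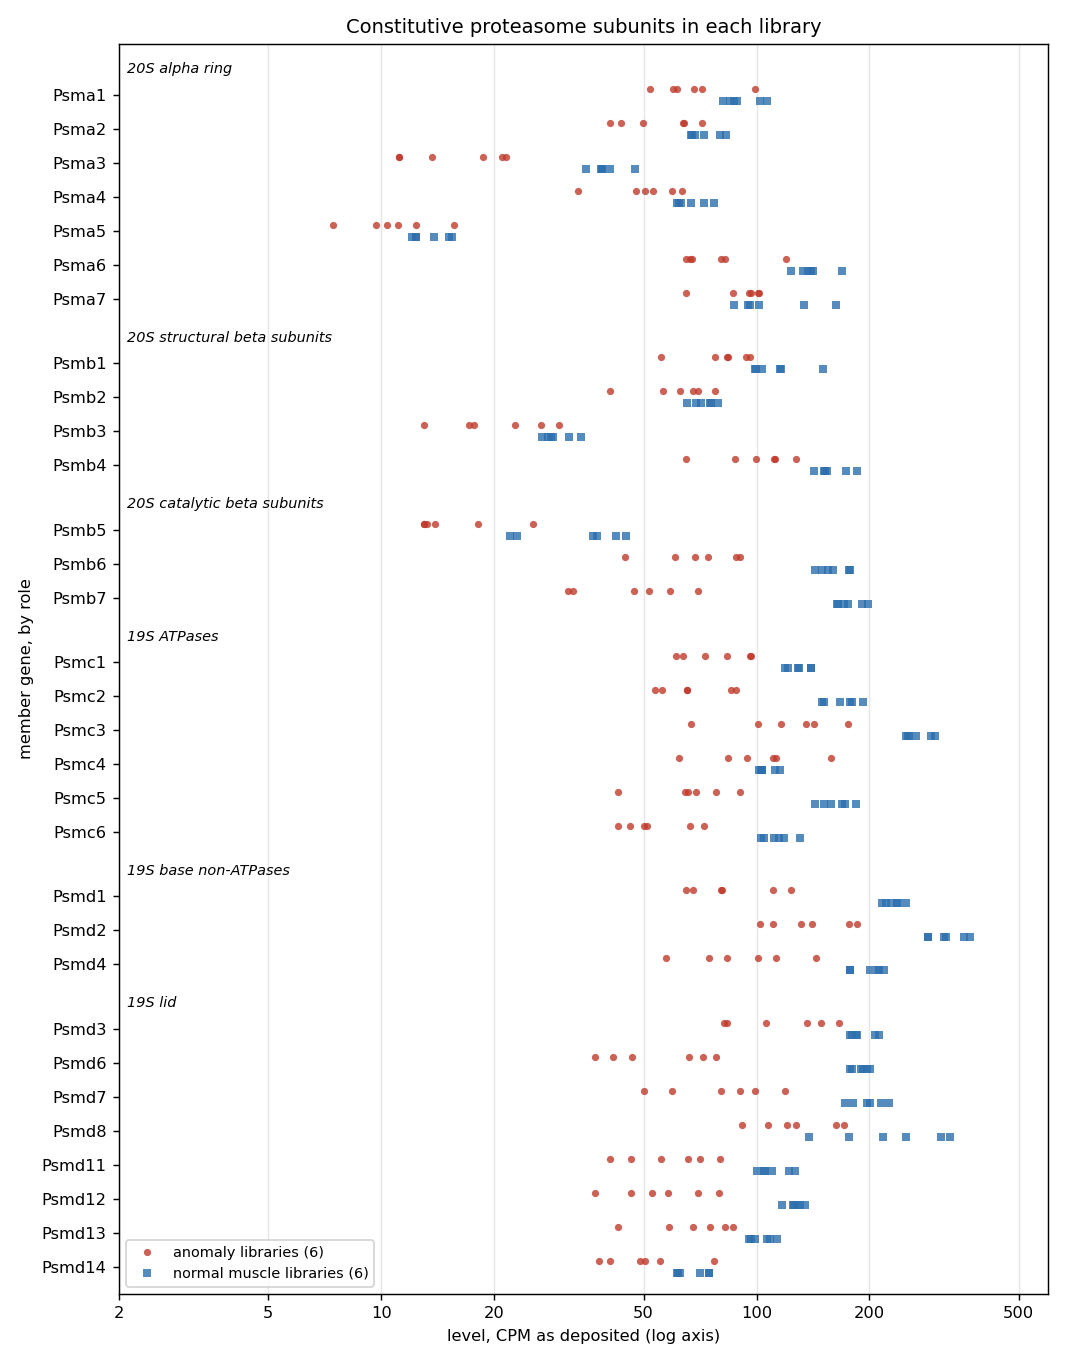
Level of each of the 31 members in CPM (log axis, deposited scaling) in 6 anomaly libraries and 6 normal libraries, with members ordered by role. The anomaly libraries lie below all normal libraries in 20 members and overlap them in the others, among them Psmc4.

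The alpha ring genes, whose products gate the core, gave 3 of 7 called lower (Psma1, Psma3 and Psma6), against 31% of all genes. The median log2 fold change of the ring was -0.41, against 0.73 with library totals alone. Psma3, the member of this ring with the smallest p, had 16.3, 12.4 and 19.8 CPM in anomaly animals 1, 2 and 3, against 38.7, 37.0 and 44.0 CPM in normal animals 1, 2 and 3. The groups did not overlap, and Psma3 fell by 1.29 ± 0.20 (SE; adjusted p = 0.00232), while its value with library totals alone was -0.19 (adjusted p = 0.383). Psma6 had 92.3, 67.0 and 81.4 CPM in anomaly animals, against 128, 139 and 155 CPM in normal animals, and fell by 0.83 ± 0.18 (adjusted p = 0.00753), against 0.32 with library totals alone. Psma7, among the 3 members with the highest fold change, had 83.2, 90.9 and 98.6 CPM in anomaly animals, against 91.5, 98.2 and 148 CPM in normal animals. Its groups overlapped, normal animal 3 was high, and its log2 fold change of -0.29 ± 0.23 did not pass (adjusted p = 0.301). Psma2, Psma4 and Psma5 did not pass either, at -0.41, -0.41 and -0.29, and these 3 and Psma7 were called higher with library totals alone. Psma1 was called lower at -0.44 ± 0.16 (adjusted p = 0.0475), but higher, at 0.70, with library totals alone (adjusted p = 0.0112). The call as lower was lost on leaving out anomaly animal 2, anomaly animal 3 or any of normal animals 1, 2 and 3 (adjusted p of 0.0562 to 0.157).

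Of the 4 structural beta subunits, which build the inner rings without an active site, 1 was called lower, against 31% of all genes. The list median was -0.50, against 0.63 with library totals alone. Psmb4 had 88.2, 93.8 and 120 CPM in anomaly animals, against 153, 147 and 179 CPM in normal animals. It was called lower at -0.69 ± 0.20 (adjusted p = 0.0223), but higher, at 0.46, with library totals alone (adjusted p = 0.045). The groups did not overlap, yet the call as lower was lost without anomaly animal 2 and without any of normal animals 1, 2 and 3 (adjusted p of 0.0548 to 0.0805). Psmb2, among the 3 members with the highest fold change, had 59.2, 63.1 and 65.2 CPM in anomaly animals, against 67.1, 73.5 and 76.9 CPM in normal animals. Each anomaly animal lay below each normal animal, but by little, and its fold change of -0.24 ± 0.15 did not pass (adjusted p = 0.194). Psmb1 and Psmb3 had log2 fold changes of -0.48 and -0.51 that did not pass, and both, like Psmb2, were called higher with library totals alone.

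All 3 constitutive catalytic subunits were called lower, at a median of -1.20 with the deposited scaling, against -0.05 with library totals alone. Psmb7, which carries the trypsin-like activity, had 45.2, 42.0 and 58.5 CPM in anomaly animals 1, 2 and 3, against 173, 165 and 195 CPM in normal animals 1, 2 and 3. Every anomaly library lay far below every normal library. Psmb7 fell by 1.90 ± 0.19 (adjusted p = 0.000499), the lowest fold change of the 31 members, and it also fell with library totals alone, at -0.76 ± 0.16 (adjusted p = 0.00583). Psmb6, which carries the caspase-like activity, had 67.3, 64.5 and 81.2 CPM in anomaly animals, against 158, 147 and 177 CPM in normal animals. The groups did not overlap and Psmb6 fell by 1.20 ± 0.18 (adjusted p = 0.00188), against -0.05 with library totals alone. Psmb5, which carries the chymotrypsin-like activity, had 19.1, 13.1 and 16.0 CPM in anomaly animals, against 22.5, 43.5 and 37.1 CPM in normal animals. Its normal animals differed among themselves, with animal 1 low in both pieces at 22.1 and 22.9 CPM, and piece 2 of anomaly animal 1, at 25.3 CPM, overlapped them. Psmb5 was called at -1.04 ± 0.28 (adjusted p = 0.0165), against 0.06 with library totals alone. The call was lost without anomaly animal 2, normal animal 2 or normal animal 3 (adjusted p of 0.0555 to 0.0626).

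Of the 6 ATPases, which unfold the substrate, 5 were called lower, at a median of -1.12, against 0.03 with library totals alone. Psmc2 had 69.7, 60.6 and 76.8 CPM in anomaly animals, against 172, 151 and 185 CPM in normal animals. The groups did not overlap, and Psmc2 fell by 1.30 ± 0.17 (adjusted p = 0.00133), the smallest p of the ring, against -0.16 with library totals alone. Psmc5, Psmc3, Psmc6 and Psmc1 were called at -1.27, -1.18, -1.06 and -0.73 in that order, and Psmc6 and Psmc1 were at 0.08 and 0.42 with library totals alone. The remaining ATPase, Psmc4, had 126, 86.4 and 98.2 CPM in anomaly animals, against 103, 103 and 114 CPM in normal animals. Its groups overlapped, with anomaly animal 1 above all normal animals and anomaly animals 2 and 3 below them. The fold change of -0.10 ± 0.19 was the highest of the 31 members and did not pass (adjusted p = 0.675), and with library totals alone Psmc4 was called higher at 1.05 ± 0.21 (adjusted p = 0.00471).

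The 3 other subunits of the base were all called lower, at a median of -1.22, against -0.07 with library totals alone. Psmd1, a large scaffold subunit, had 94.3, 74.0 and 95.7 CPM in anomaly animals, against 238, 223 and 236 CPM in normal animals. The groups were far apart and Psmd1 fell by 1.43 ± 0.18 (adjusted p = 0.000984), against -0.28 with library totals alone (adjusted p = 0.165). Psmd2, the other scaffold subunit, and Psmd4, a ubiquitin receptor, were called at -1.22 ± 0.20 and -1.11 ± 0.25 (adjusted p = 0.00291 and 0.00892), and Psmd4 was at 0.04 with library totals alone. Psmd2 had 139, 126 and 158 CPM in anomaly animals, against 287, 318 and 365 CPM in normal animals, and the groups did not overlap.

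Of the 8 lid subunits, 6 were called lower, at a median of -0.88, against 0.27 with library totals alone. Psmd6 had 54.5, 44.0 and 72.1 CPM in anomaly animals, against 194, 179 and 196 CPM in normal animals. The groups were far apart, Psmd6 fell by 1.77 ± 0.22 (adjusted p = 0.000968), and it fell also with library totals alone, at -0.63 ± 0.18 (adjusted p = 0.0201). Psmb7 and Psmd6 were thus the 2 members called lower with library totals alone, where 11.8% of all genes were called lower. Under that scaling 13 members were called higher, against 56.8% of all genes. They were Psma1, Psma2, Psma4, Psma5, Psma7, Psmb1, Psmb2, Psmb3, Psmb4, Psmc1, Psmc4, Psmd13 and Psmd14. Of these, Psma1, Psmb4, Psmc1 and Psmd13 were called lower with the deposited scaling. Psmd7, Psmd12 and Psmd11 were called at -1.30, -1.18 and -0.92, and Psmd11 was at 0.22 with library totals alone. Psmd14, the deubiquitinase of the lid, had a log2 fold change of -0.41 ± 0.16 that did not pass (adjusted p = 0.061), against 0.72 with library totals alone. Psmd8 had 142, 99.4 and 149 CPM in anomaly animals, against 157, 319 and 234 CPM in normal animals. Among normal libraries the pieces of animal 2 were highest, at 328 and 310 CPM, and those of animal 1 lowest, at 176 and 138 CPM. The fold change of -0.83 ± 0.32 did not pass (adjusted p = 0.0589) and was 0.32 with library totals alone. Psmd3 and Psmd13 were called at -0.71 and -0.62, against 0.44 and 0.53 with library totals alone. Psmd3 lost the call without anomaly animal 1, anomaly animal 2 or any normal animal (adjusted p of 0.0592 to 0.103), and Psmd13 lost it without anomaly animal 2 or any normal animal (0.0586 to 0.0772).

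**Figure D2:**
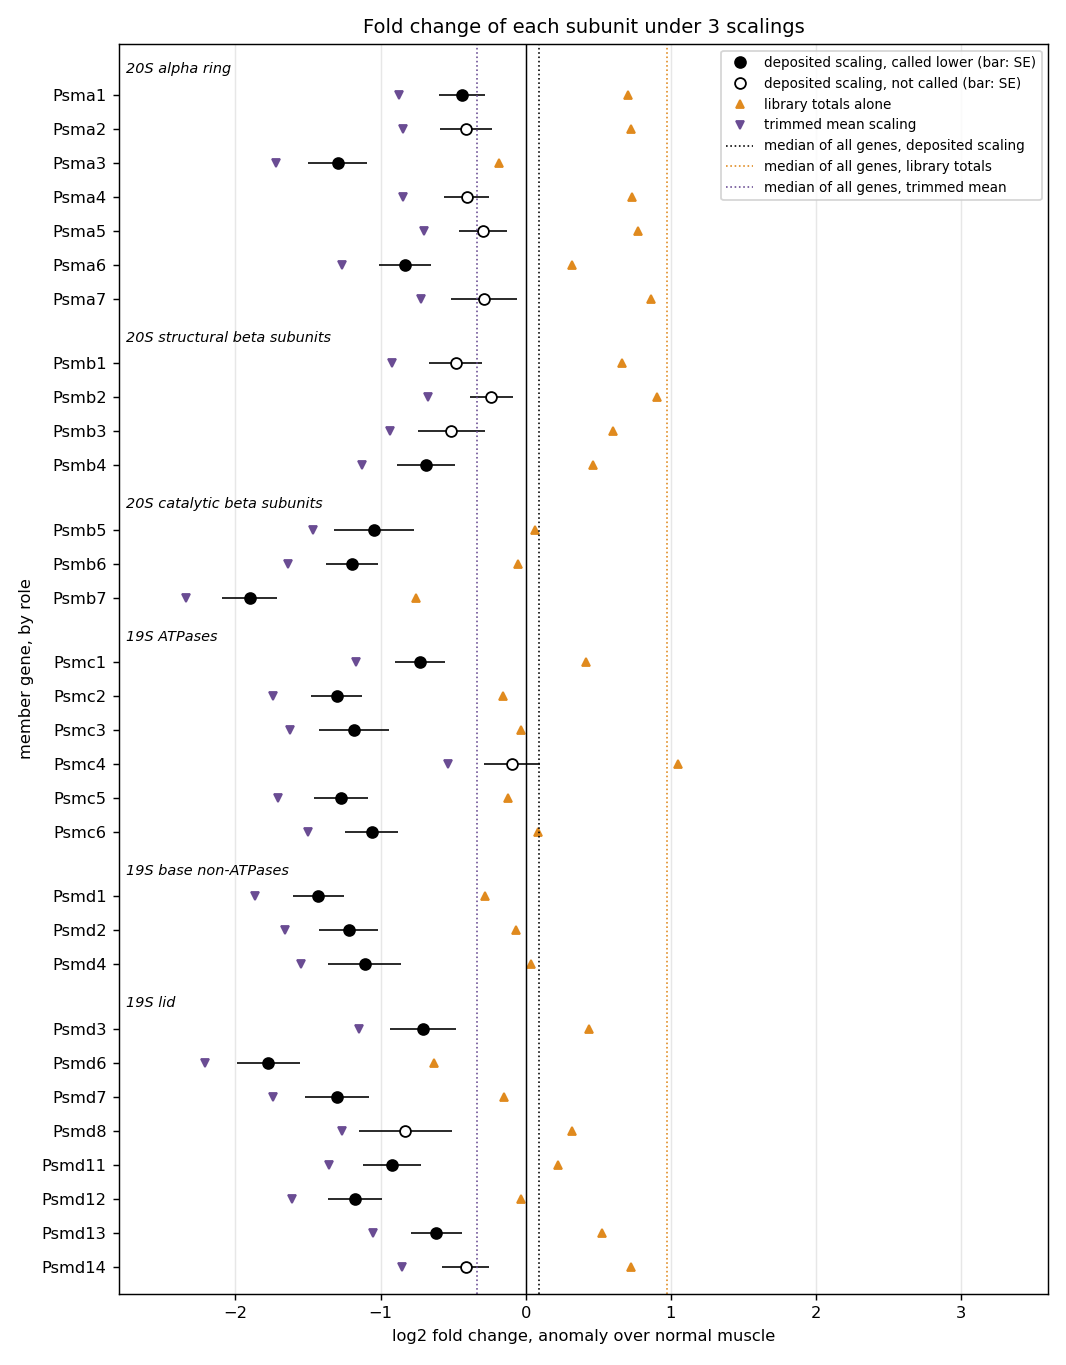
Log2 fold change, anomaly over normal muscle, of each member with the deposited scaling (circles, filled where called lower, bars are the SE of limma), with library totals alone and with trimmed mean scaling, and dotted lines at the median of all genes under each. All 31 circles lie below 0, 20 of the 31 values with library totals alone lie above 0, and under every one of the 3 scalings at least 30 members lie below the median of all genes.

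Some member counts are uncertain because their sequence is shared with other genes. More than 10% of the 50-base stretches of the longest basic coding transcript were also found in transcripts of other genes for 10 of the 31 members, among them Psmb5 (57.1%), Psmb3 (55.8%), Psma5 (55.4%), Psma4 (31.5%), Psmb7 (28.1%), Psmd2 (26.4%) and Psma3 (22.0%). The submitters' notes do not say how reads with several places were counted. The column names end in ReadsPerGene.out, as STAR names its gene counts, which leave out such reads. Members with much shared sequence may therefore be counted too low. The libraries were unstranded, so reads of an overlapping gene cannot be told apart: more than 10% of the exon bases were shared with Mir686 in Psmb5 (12.1%), with Nek6 in Psmb7 (11.8%) and with Sirt3 in Psmd13 (10.1%). The sequence of Psmd6, whose gene lies at GRCm38 chromosome 14, 14112174 to 14120984 (minus strand), shared 0% by either measure. Psmb7 lies at chromosome 2, 38588036 to 38644087 (minus strand), and Psmc4 at chromosome 7, 28041707 to 28050101 (minus strand), which also shared 0%.

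To compare levels between members, CPM was divided by the length of coding-transcript exons in kb. Psmb6 had the highest level of the 31 in both groups, at 88.9 ± 11.2 CPM per kb in anomaly animals and 201 ± 19.1 in normal animals (SD, n = 3 each). Psmb7 ranked 17 of 31 in anomaly animals, at 41.9 ± 7.53 CPM per kb, and 2 of 31 in normal animals, at 153 ± 13.3. Psmd6 ranked 18 in anomaly animals, at 41.0 ± 10.2 CPM per kb, and 3 in normal animals, at 137 ± 6.78. Among the members that ranked higher in anomaly animals, Psmc4 ranked 5 in anomaly and 18 in normal animals, Psmb2 ranked 4 in anomaly and 15 in normal animals, Psma7 ranked 3 in anomaly and 12 in normal animals, and Psma1 ranked 10 in anomaly and 19 in normal animals. The lowest levels in both groups were those of Psma3 and Psma5, both among the genes with shared sequence. Psma5 had 8.95 ± 0.329 CPM per kb in anomaly animals and 10.9 ± 1.28 in normal animals. These ranks follow from the mean over animals, and neighbours in the order often differ by less than their spread.

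A measure that scaling between libraries enters only through the pseudocount is the distance of each member from the median of the 31 members in the same library, in log2(CPM + 1). Psmb7 lay at -0.54 ± 0.11 from that median in anomaly animals and at 0.46 ± 0.07 in normal animals (SD, n = 3 each), a difference of -1.0. Psmd6 lay at -0.32 ± 0.21 in anomaly and 0.55 ± 0.13 in normal animals (difference -0.88), and Psmd1 at 0.32 ± 0.12 in anomaly and 0.85 ± 0.14 in normal animals (difference -0.53). These 3 lay lower among the members in anomaly than in normal animals. Psmc4 differed the other way, at 0.53 ± 0.31 in anomaly and -0.27 ± 0.05 in normal animals (difference 0.80). So did Psmb2 (difference 0.66), Psma7 (0.61) and Psma5 (0.61). These differences are the fold changes given above, each moved by the same amount, so they are no separate evidence. The 31 fold changes had a standard deviation of 0.46 log2 units, which includes the error of each estimate. Whether members differed from each other was not tested.

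**Figure D3:**
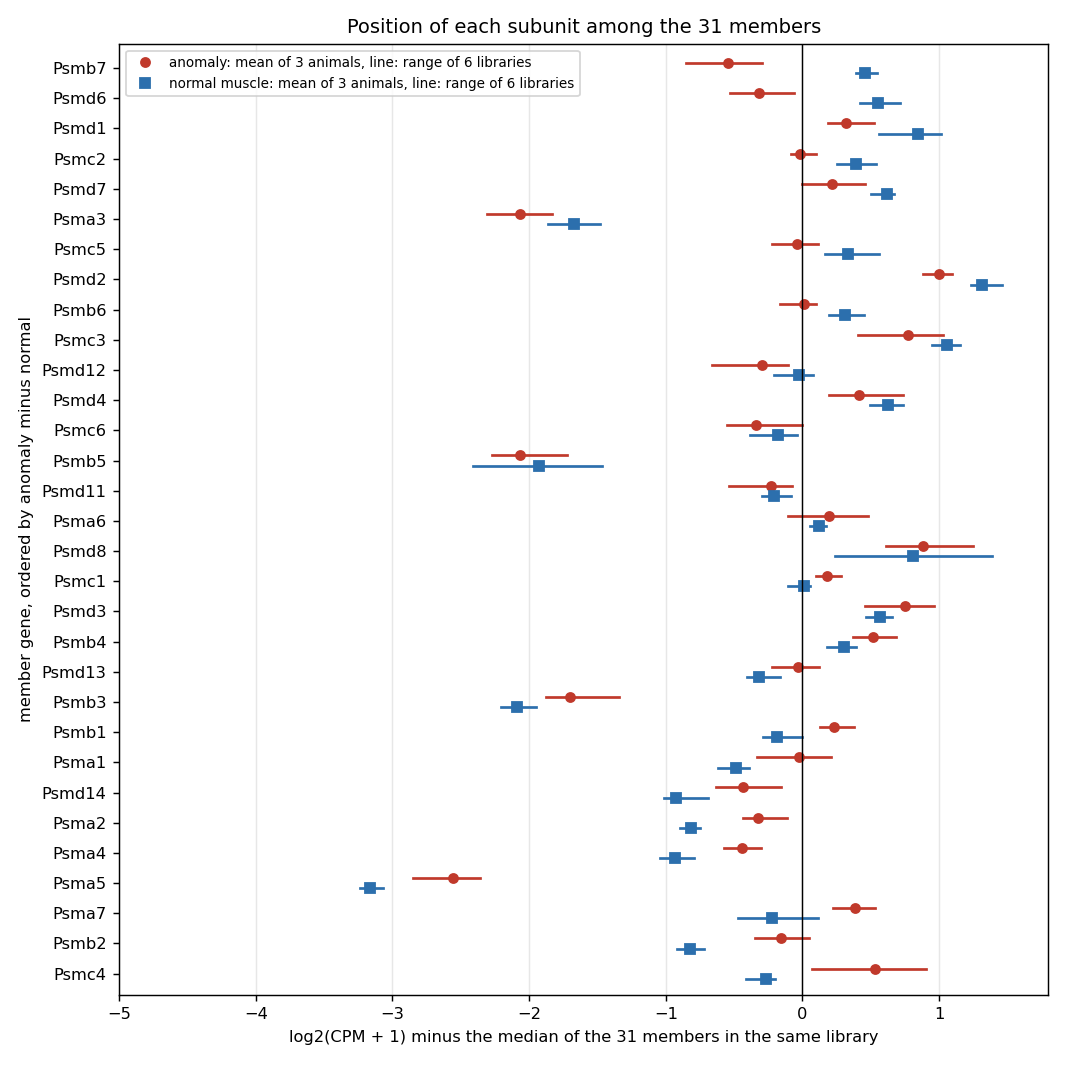
Distance of each member from the median of the 31 members in the same library, in log2(CPM + 1), as the mean of 3 anomaly animals and of 3 normal animals with the range of the 6 libraries of each group as a line. Psmb7 and Psmd6 lie lower in anomaly than in normal animals (differences of -1.0 and -0.88), and Psmc4 lies higher (0.80).

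The shift was also read in each anomaly animal. The median difference of the 31 members from the mean of normal animals was -0.83 in anomaly animal 1, -1.18 in animal 2 and -0.62 in animal 3, where the median of all genes was -0.05, 0.13 and 0.08. Pieces of animal 1 differed, at -1.24 for the shallow piece 1 and -0.47 for piece 2, and piece 2 of animal 3 was at -0.46. Limma's F test among the 3 anomaly animals, with pieces as replicates so that it measures the spread between pieces only, called 0 of 31 members at an adjusted p under 0.05, where 35.1% of all genes were called. Without piece 1 of anomaly animal 1 it called 15 of 31 members, where 44.5% of all genes were called. Psmd6 had the smallest adjusted p in that fit (0.00578), with 71.9 CPM in the remaining piece of animal 1, 46.6 and 41.5 CPM in animal 2 and 66.2 and 77.9 CPM in animal 3.

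Cell type markers moved with the groups. The 10 skeletal muscle fibre markers gave 9 lower and 0 higher and summed to 252 to 40784 CPM in anomaly libraries, against 326744 to 376695 CPM in normal libraries, and none was at 0 in any library. By anomaly library the sum was 271 and 2440 CPM in animal 1, 252 and 560 CPM in animal 2, and 13113 and 40784 CPM in animal 3. All 10 endothelial markers were higher, at summed levels of 2120 to 6939 CPM in anomaly libraries, against 309 to 502 CPM in normal libraries. All 10 macrophage markers were higher, at 549 to 3199 CPM in anomaly libraries, against 32.1 to 199 CPM in normal libraries. All 8 proliferation markers were higher, at 224 to 762 CPM in anomaly libraries, against 1.06 to 2.30 CPM in normal libraries, of which up to 2 were at 0 in a normal library. Of the erythroid markers 5 of 6 were higher, at 471 to 55946 CPM in anomaly libraries, against 87.8 to 251 CPM in normal libraries, and of the fibroblast markers 3 of 7 were higher. These counts of muscle fibre, endothelial, macrophage, proliferation and erythroid markers were the same with library totals alone and with trimmed mean scaling. By smallest p, the fibre markers were led by Myh4, Pvalb and Ckm (-9.53, -8.07 and -7.92), the endothelial ones by Emcn, Pecam1 and Erg (4.03, 3.80 and 3.24) and the macrophage ones by Ctss, Mpeg1 and C1qb (4.95, 5.70 and 3.81). The proliferation markers were led by Mki67, Top2a and Cdk1 (6.51, 6.25 and 5.67) and the fibroblast ones by Col1a1, Col1a2 and Col3a1 (4.88, 4.23 and 3.93). The other 4 fibroblast markers were negative and did not pass (Pdgfra -0.15, Dcn -2.32, Lum -0.60 and Dpt -1.20), the median of that list was -0.15, against 0.92 with library totals alone, and trimmed mean scaling called Dcn lower. Of the erythroid genes, Hba-a2, Hba-a1, Alas2, Hbb-bt and Hbb-bs passed (log2 fold changes of 4.99, 4.94, 4.35, 4.76 and 4.70). The part of these cell types in the values of the proteasome genes was not tested.

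The 3 immunoproteasome subunits, which take the place of the constitutive catalytic subunits, were all called higher in anomaly tissue under every scaling tried. Psmb8 had 35.9 ± 10.1 CPM in anomaly animals and 4.09 ± 0.989 CPM in normal animals (SD, n = 3 each) and rose by 2.75 ± 0.27 (SE; adjusted p = 0.000484). Psmb9 had 19.4 ± 7.94 CPM in anomaly animals and 3.46 ± 1.09 CPM in normal animals and rose by 1.99 ± 0.33 (adjusted p = 0.00276). Psmb10 had 36.04 ± 8.01 CPM in anomaly animals and 14.01 ± 0.994 CPM in normal animals and rose by 1.22 ± 0.20 (adjusted p = 0.00276). The fold changes were 3.76, 2.96 and 2.32 with library totals alone and 2.36, 1.61 and 0.80 with trimmed mean scaling.

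Set against the subunit it replaces, each immunoproteasome gene gave a log2 ratio that shifts little with scaling. Psmb8 minus Psmb5 was 1.03 ± 0.61 in anomaly animals and -2.77 ± 0.19 in normal animals (SD, n = 3 each), a difference of 3.79. Psmb9 minus Psmb6 was -2.02 ± 0.57 in anomaly animals and -5.21 ± 0.42 in normal animals, a difference of 3.19. Psmb10 minus Psmb7 was -0.44 ± 0.49 in anomaly animals and -3.57 ± 0.16 in normal animals, a difference of 3.13. All 3 anomaly animals lay above all 3 normal animals in each pair. The exact two-sided permutation test gave p = 0.1 for each (0.1 after adjustment over the 3 pairs), which is the smallest that 3 animals against 3 allow, so none can pass. The libraries of anomaly animals ranged from -0.06 to 2.14 for Psmb8 minus Psmb5, with piece 2 of animal 2 highest and piece 2 of animal 3 lowest. Those same pieces were the highest and the lowest for the other pairs. Shared sequence makes these ratios uncertain too. Psmb8 shared 14.7% of its exon bases with Gm20496, and Psmb9 shared 12.5% of its 50-base stretches with another gene. For Psmb5 and Psmb7 the shares of such stretches were 57.1% and 28.1%.

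**Figure D4:**
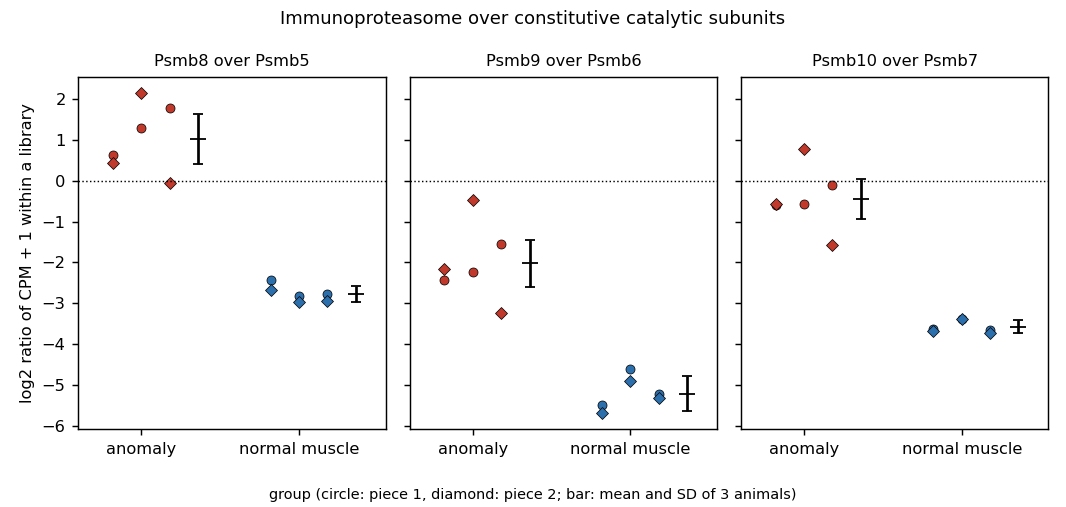
Log2 ratio of each immunoproteasome gene to the constitutive catalytic gene it replaces, in 6 anomaly and 6 normal libraries, with a line at the mean of 3 animals. The anomaly libraries lie above the normal libraries in all 3 pairs, by 3.79, 3.19 and 3.13 on average.

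Genes that act on or with the proteasome were called in both directions, where the deposited scaling called 32.4% of all genes higher and 31% lower. With library totals alone, where 56.8% of all genes were called higher and 11.8% lower, 4 of 5 activators and inhibitors were higher and 1 lower, 7 of 8 assembly chaperones were higher and 0 lower, and 4 of 6 genes bound to the 19S particle were higher and 1 lower. Under that scaling the genes for NRF factors and their activation gave 1 higher and 1 lower of 4, and those for VCP and shuttle factors 2 higher and 2 lower of 8. Of 5 activators and inhibitors, Psme4, encoding the activator PA200, had 87.8 ± 22.0 CPM in anomaly and 441 ± 91.6 CPM in normal animals and fell by 2.34 ± 0.27 (adjusted p = 0.000794), and also fell with library totals alone (-1.19). With a direction that held under every scaling tried, Psme2, a subunit of the interferon-inducible activator PA28, had 24.5 ± 7.44 CPM in anomaly and 10.01 ± 0.123 CPM in normal animals and rose by 1.15 ± 0.24 (adjusted p = 0.00654). Its partner Psme1 (0.59), Psme3 (-0.28) and the inhibitor Psmf1 (-0.04) did not pass with the deposited scaling. Of 8 assembly chaperones, Psmg2 fell by 1.22 ± 0.18 (adjusted p = 0.00178), against -0.14 with library totals alone, where it was not called (adjusted p = 0.552). Psmg4 was called higher at 0.58 ± 0.20 (adjusted p = 0.0412), against 0.21 with trimmed mean scaling where it was not called, and the other 6 did not pass, Psmd5 among them at 0.39 (adjusted p = 0.0522). The call of Psmg4 held without anomaly animal 1 and in no other fit that left out an animal (adjusted p of 0.0353 to 0.157).

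The 6 genes for ubiquitin receptors, deubiquitinases and other proteins bound to the 19S particle gave 3 lower and 0 higher at a median of -0.44, against 0.68 with library totals alone. AI314180, the mouse gene for ECPAS, a protein known from yeast and human cells to bind the proteasome, had 83.8 ± 18.4 CPM in anomaly and 436 ± 29.5 CPM in normal animals and fell by 2.40 ± 0.22 (adjusted p = 0.000415). It fell also with library totals alone, at -1.25. The ubiquitin ligase Ube3c fell by 1.0 ± 0.14 (adjusted p = 0.00153), against 0.14 with library totals alone. The deubiquitinase Uchl5 was called lower at -0.58 ± 0.14 (adjusted p = 0.0111), but higher, at 0.53, with library totals alone, and was not called without normal animal 2 or normal animal 3 (adjusted p of up to 0.0524). Usp14 (-0.29), Adrm1 (-0.28) and Sem1 (-0.05), which is itself a small lid subunit, did not pass.

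NRF1 is made as an inactive precursor and is released by the deglycosylase Ngly1 and the protease Ddi2. Nfe2l1 had 292 ± 198 CPM in anomaly animals and 1253 ± 149 CPM in normal animals and fell by 2.34 ± 0.50 (adjusted p = 0.00763), against -1.18 with library totals alone, where it did not pass. Ngly1 had 17.8 ± 6.78 CPM in anomaly and 63.7 ± 1.95 CPM in normal animals and fell by 1.86 ± 0.28 (adjusted p = 0.00196), and it also fell with library totals alone (-0.75). Ddi2 was called at -0.88 ± 0.16 (adjusted p = 0.00442), against 0.26 with library totals alone. The related factor Nfe2l2 had a fold change of 0.51 ± 0.22 that did not pass (adjusted p = 0.0857). So 3 of these 4 genes were lower in anomaly tissue with the deposited scaling.

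Among ubiquitin and E1 genes, Rps27a, which encodes ubiquitin fused to a ribosomal protein, was called higher at 0.86 ± 0.19 (adjusted p = 0.00799), against 0.49 with trimmed mean scaling, where it was not called. Such fusion genes have many processed pseudogenes, so this count is uncertain. Ubb (-0.69), the activating enzyme Uba1 (-0.22) and Uba6 (0.21) did not pass. Of 8 genes for VCP, a segregase that extracts ubiquitinated proteins, and for shuttle factors, 4 were lower and 0 higher at a median of -0.70, against 0.44 with library totals alone. Ubqln4 fell by 1.98 ± 0.21 and Vcp fell by 1.11 ± 0.17 (adjusted p = 0.000608 and 0.00222). Ubqln4 fell also with library totals alone, at -0.84, and Vcp was then at 0.03.

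The muscle ubiquitin ligases had the lowest median of the related lists of the pathway. Of 6 genes, 4 were called lower and 0 higher, at a median of -2.34, against -1.23 with library totals alone. Asb2 had 35.98 ± 50.7 CPM in anomaly and 1499 ± 240 CPM in normal animals and fell by 6.50 ± 0.95 (adjusted p = 0.00183). Trim63 and Fbxo32, which encode the atrophy ligases MuRF1 and atrogin-1, fell by 5.88 ± 1.07 and 4.08 ± 0.65 (adjusted p = 0.00401 and 0.0024). All 3 fell under every scaling tried, and the summed level of the list was highest among anomaly libraries in the pieces of animal 3, at 187 and 389 CPM, where the fibre markers were highest too. Trim32 was called at -0.60 ± 0.19 (adjusted p = 0.0309), was not called without any normal animal (adjusted p of up to 0.117) and was at 0.48 with library totals alone. Fbxo30 (0.40, but -0.02 with trimmed mean scaling) and Fbxo21 (0.55) did not pass. With library totals alone both were called higher, at 1.49 and 1.66 (adjusted p = 0.0015 and 0.00579), so that the list then gave 2 higher and 3 lower.

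**Figure D5:**
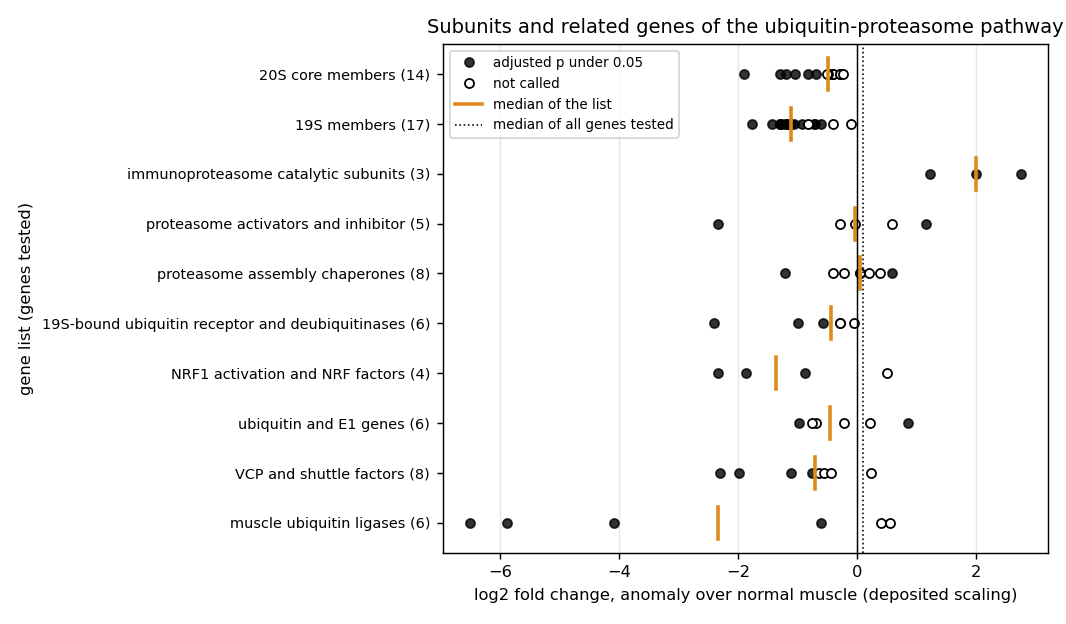
Log2 fold change, anomaly over normal muscle with the deposited scaling, of the 20S and 19S members and of the genes of 8 related lists, filled where the adjusted p is under 0.05, with a bar at the median of each list and a dotted line at the median of all genes tested. With library totals alone the medians of the 20S and 19S members were 0.63 and 0.04, while the 3 immunoproteasome genes were higher under every scaling.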

How the data were processed

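RNA of 12 muscle libraries was sequenced without strand information, 2 pieces from each of 3 anomaly and 3 normal animals. The authors deposited 1 table of log2 CPM, read counts scaled to a common library size, with a floor of -6.707 for genes without reads. The submitters' processing notes name STAR, limma and the build mm10 (GRCm38), with no roles. Counting of reads with several places is not described there, but the column names end in ReadsPerGene.out. That is the name of STAR's gene counts, which leave out such reads. The deposited log2 values were turned back into CPM. Among the lower read counts, the only ones checked, 100% came out as whole reads within 0.01, and higher counts were rounded to whole reads. This gave the depth of each library and a composition factor in the authors' scaling. Depth was 254404 to 32155879 reads, and the shallow library gives the least precise values.

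For the fits, log2(CPM + 1) was taken in each library and then averaged over the 2 pieces of an animal. These averages were fitted by limma 3.58.1 in R 4.3.3 for 14687 genes whose mean reached 1 CPM in either group. The p-values were adjusted by Benjamini-Hochberg over all of them. The fold change is on the log2(CPM + 1) scale, which understates the change of low genes. Of 30389 gene IDs, 17157 had a symbol in the table and 30294 were found in the annotation. The p-values measure the spread between these animals.

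Full values are given for the catalytic subunits, for the 3 members with the highest and the 3 with the lowest fold change, and for the member with the smallest p in each role. In related lists every gene of a list of up to 6 is named, otherwise the 3 with the smallest p, except that a few genes of these lists are not reported here. The members and lists were chosen with earlier results of these data known. Log2 ratios were compared by exact permutation over animals. The fits were tested on simulated data. Alternatives changed the scaling, pseudocount, filter, pieces, replicate unit and test, and left out each animal in turn. Paaf1 is not analysed here.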

Additional observations from a re-analysis of the deposited data

Results flagged for a closer look

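Of 62 sets of 6 libraries examined (31 members in 2 groups), 1 held a library that stood apart by Dixon's criterion, and chance gives about 1 in 20 sets. In the anomaly libraries, Psma7 was at 6.04 log2(CPM + 1) in piece 1 of animal 1, the shallow library, and the nearest other anomaly library was at 6.45. The gap was 0.639 of the range of the 6 libraries, above the 95% critical value for 6 samples.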

How the results depend on the processing

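The members' direction changed with the scaling. By library totals alone, 13 members were called higher and 2 lower, against 0 and 21 with the deposited scaling, and the median turned to 0.32. It was -1.27 with trimmed mean scaling (30 lower) and -1.28 without the 50 most abundant genes (31 lower). Relative to all genes, the members' median was between -1.12 (piece 1 alone) and -0.66 (library totals alone). Members positive with library totals alone were Psma1 0.70, Psma2 0.73, Psma4 0.73, Psma5 0.77, Psma6 0.32, Psma7 0.86, Psmb1 0.66, Psmb2 0.90, Psmb3 0.60, Psmb4 0.46, Psmb5 0.064, Psmc1 0.42, Psmc4 1.05, Psmc6 0.082, Psmd4 0.039, Psmd3 0.44, Psmd8 0.32, Psmd11 0.22, Psmd13 0.53 and Psmd14 0.72. Psmc4 was also at 0.027 with anomaly animal 1 by piece 2 alone, at 0.067 with voom and at 0.034 without anomaly animal 2. Piece 2 alone gave 14 members lower (28.6% of all genes), against 21 with both pieces. With anomaly animal 1 by piece 2 alone, 18 were lower (30.9% of all genes) at a median of -0.76. With voom on reads summed per animal, 19 were lower (29.8%) at a median of -0.75. Leaving out 1 animal gave 16 to 24 lower (24.5% to 32.6% of all genes) and a median of -0.96 to -0.72. In all 6 such fits 16 members were called lower, and the share of all genes that kept a call in all 6 was not computed. With the piece number, which is sample order and not a known batch, as a block, 21 were lower (32.3% of all genes) at a median of -0.83. In that fit Psma1 lost its call (adjusted p = 0.101) and Psmd8 gained one (0.0216). A pseudocount of 5 gave 2.96 for Psmb8 minus Psmb5 and 2.53 for Psmb9 minus Psmb6. Members differing among anomaly animals numbered 3 with library totals alone (43.7% of all genes), 2 with median-of-ratios scaling (41.2%), 7 with either trimmed mean scaling (44.3%) and 15 without piece 1 of anomaly animal 1 (44.5%). The cause of these changes was not tested. The shallow library limits what can be read within anomaly animal 1. The lists under each scaling and the fit without that piece were added after seeing the data.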
